A study of Mus musculus with 8 samples.

Results

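The Notch pathway was examined through 10 genes, 4 receptors (Notch1, Notch2, Notch3 and Notch4), 4 ligands (Jag1, Jag2, Dll1 and Dll4) and 2 targets (Hes1 and Hey1). They were found by their symbols among the 23420 genes of the count tables, where all 10 are present, and all 10 passed the filter on low counts. The counts come from polyadenylated RNA of uterine stromal cells of female mice, labelled day 3 and either Erbb3f/f (4 libraries) or Erbb3d/d (4 libraries). By convention f/f stands for a gene with both copies floxed and d/d for both copies deleted. The labels leave this unstated and give no Cre line, no age, no event from which day 3 is counted, and no number of animals per library, so the tests measure the spread between these libraries only. The study's title places the question in the part that stromal Erbb3, a receptor tyrosine kinase gene, has in the shaping of uterine glands.

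Notch receptors are cell-surface proteins that are switched on by Jagged and Delta-like ligands carried by a neighbouring cell. Ligand binding lets ADAM10 and then the gamma-secretase complex cut the receptor, and the freed intracellular part joins the DNA-binding protein RBPJ and Mastermind coactivators to turn on targets such as the Hes and Hey repressor genes. In the uterus the pathway is known for its part in the decidual response of the stroma, and NOTCH4 and DLL4 are best known from endothelium and NOTCH3 from the mural cells of vessels.

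Reads assigned to genes numbered 8578575 to 12854367 per library. Erbb3 itself had the higher mean in Erbb3d/d, at 13.9 ± 4.56 CPM against 9.64 ± 2.24 CPM in Erbb3f/f (SD, n = 4 each). The labels overlapped, with 3 libraries labelled Erbb3d/d above all of Erbb3f/f and Erbb3d/d replicate 1 (7.37 CPM) below all of them. Its log2 fold change was 0.53 (SE 0.28, adjusted p = 0.485 in edgeR's quasi-likelihood test). Reads were counted over the whole gene and not over a deleted part, so these values cannot decide whether the labels are right. Every direction given here follows the labels only. CPM is the number of reads per 1000000 reads in the tested genes, after scaling by the trimmed mean of M values. In edgeR's quasi-likelihood test 0 of 14598 genes had an adjusted p under 0.05 (0%), while 11.6% had an unadjusted p under 0.05 and DESeq2 called 262 genes (1.80%). All 10 defining stromal genes on the list used here, from Pdgfra to Vim, were detected in both labels, with a summed level of 11058 to 13640 CPM in Erbb3f/f and 9387 to 12760 CPM in Erbb3d/d. Of these, 8 had a lower mean in Erbb3d/d (median log2 fold change -0.30, 0 called). Pdgfra (0.679-fold, adjusted p = 0.206 in edgeR's test) and Vim (0.720-fold, adjusted p = 0.279) were lower there with no overlap, as were 2.48% of all tested genes. Markers of other cells were present too. The 12 epithelial markers summed to 858 to 1332 CPM in Erbb3f/f and 1338 to 2159 CPM in Erbb3d/d, with no overlap. The 8 smooth muscle markers summed to 826 to 1713 CPM and 1666 to 3966 CPM, the 12 endothelial markers to 434 to 759 CPM and 442 to 821 CPM, the 6 mural markers to 405 to 524 CPM and 459 to 558 CPM, and the 9 immune markers to 1079 to 2662 CPM and 1546 to 1946 CPM. None of these lists had a member at 0 reads. In bulk RNA, fewer cells of a type and less RNA per cell cannot be told apart.

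The promoters of the ligand whose libraries separated by label, Jag1, and of the most abundant receptor, Notch2, are shown as examples of the windows searched. Jag1 was chosen with its values known. Each run holds the 250 bases before the RefSeq start site (GRCm38.p6), Jag1 at chr2:137116521-137116770 on the minus strand and Notch2 at chr3:98013288-98013537 on the plus strand. Capitals mark matches to CACGNG on either strand, the class C E-box bound by Hes and Hey proteins, a form of which reads the same on both strands.
Jag1: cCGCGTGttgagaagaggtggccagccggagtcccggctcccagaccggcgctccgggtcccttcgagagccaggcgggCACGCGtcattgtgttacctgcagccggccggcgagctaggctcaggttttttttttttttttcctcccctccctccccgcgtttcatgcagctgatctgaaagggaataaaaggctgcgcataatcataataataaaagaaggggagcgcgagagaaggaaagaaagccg
Notch2: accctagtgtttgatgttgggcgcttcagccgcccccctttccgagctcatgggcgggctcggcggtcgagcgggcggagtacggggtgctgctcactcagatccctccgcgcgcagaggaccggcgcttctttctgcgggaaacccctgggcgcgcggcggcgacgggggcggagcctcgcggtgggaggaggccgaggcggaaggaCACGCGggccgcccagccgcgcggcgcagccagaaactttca
Jag1 held 2 matches, starting 249 and 171 bases before the start site, and Notch2 held 1, starting 42 bases before it. Windows were found for 8 of the 10 genes, with Dll1 having a pair of them, and not for Hes1 and Hey1. Matches were present in 6 of these 9 windows, those of Jag1, Dll1, Dll4, Notch2 and Notch3, against 23.5% of all 32851 RefSeq windows. GC content was 57.2% for Jag1 and 72.0% for Notch2, and ran from 56.0% (Dll1) to 87.2% (Jag2) over the 9 windows, against a median of 52.4% over all windows. The share over all windows was not matched for GC content, and the search for CACGNG was chosen after seeing the data. The RBPJ core GTGGGAA, searched on both strands, had no match in the 9 windows, and 5.42% of all windows hold it. Its shorter form without the first base, TGGGAA, had none either, against 21.6% of all windows.

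The ligands had the higher mean in Erbb3d/d in all 4 cases, with log2 fold changes of 0.46 to 0.59, but none passed the test over all genes. Jag1, which encodes the ligand Jagged1, sits on the minus strand of chromosome 2 from 137081456 to 137116644 in GRCm38 (GENCODE vM21, as for all positions of genes here). Its level was 30.0, 27.6, 30.6 and 35.1 CPM in the libraries labelled Erbb3f/f, replicates 1 to 4 in order, from 308, 264, 390 and 310 reads. The libraries labelled Erbb3d/d had 44.0, 42.7, 41.6 and 57.6 CPM in the same order, from 448, 366, 528 and 656 reads. All 4 libraries labelled Erbb3d/d lay above all 4 labelled Erbb3f/f, and replicate 4 was the highest within each label. The means of 30.8 ± 3.09 and 46.5 ± 7.46 CPM (SD, n = 4 each) gave a log2 fold change of 0.59 (SE 0.13; 95% interval 0.30 to 0.89), or 1.51-fold. The adjusted p was 0.204 in edgeR's test (unadjusted 0.00106), and the two-sided exact permutation test gave 0.0286, the smallest p that 4 against 4 libraries allow. Jag1 was the only member whose labels did not overlap, and 2.56% of all tested genes were higher in this way. DESeq2 called Jag1 higher (adjusted p = 0.0111), as it did 1.39% of the genes it tested, while over all 20 alternatives the adjusted p ran from 0.0111 to 0.9997. The upper end came from edgeR with the epithelial covariate, which gave all 10 members the same adjusted p. Next below it was 0.585, from edgeR with the smooth muscle covariate. The largest shift came with the epithelial marker mean as a covariate, which gave a log2 fold change of 0.37 (SE 0.20). That mean was 5.50 to 6.12 log2 CPM in Erbb3f/f and 6.18 to 6.79 in Erbb3d/d, with no overlap. Label and epithelial level therefore cannot be told apart in this fit.

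Jag2 encodes the second Jagged ligand (chromosome 12, 112907819 to 112929776). Its levels were 11.4, 7.54, 7.23 and 8.25 CPM in Erbb3f/f replicates 1 to 4 and 12.1, 15.4, 10.4 and 9.48 CPM in Erbb3d/d replicates 1 to 4. The labels overlapped, since Erbb3f/f replicate 1 exceeded Erbb3d/d replicates 3 and 4. With 8.60 ± 1.91 against 11.8 ± 2.61 CPM (SD, n = 4 each), the log2 fold change of Jag2 was 0.46 (SE 0.22; adjusted p = 0.464 in edgeR's test).

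Dll1 encodes Delta-like 1 (chromosome 17, 15367354 to 15376872). It was the ligand with the fewest reads, 40, 32, 41 and 27 in Erbb3f/f and 55, 37, 44 and 76 in Erbb3d/d replicates 1 to 4. These correspond to 3.90, 3.35, 3.22 and 3.05 CPM in Erbb3f/f and 5.41, 4.32, 3.47 and 6.67 CPM in Erbb3d/d. Only Erbb3d/d replicate 3 was within the Erbb3f/f range. For Dll1 the log2 fold change was 0.55 (SE 0.28; adjusted p = 0.482 in edgeR's test). An exact permutation test gave p = 0.0571, and 0.0286 to 0.114 when 1 library was left out. The 0.0286 came without Erbb3d/d replicate 3 and is the smallest p that 3 against 4 libraries allow. Its log2 fold change was 0.17 (SE 0.42) with the smooth muscle marker mean as a covariate. That mean was 6.20 to 7.318 log2 CPM in Erbb3f/f and 7.319 to 8.55 in Erbb3d/d. Since it separated by label, if barely, label and smooth muscle level cannot be told apart in this fit.

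Dll4, the Delta-like ligand of sprouting vessels (chromosome 2, 119325784 to 119335962), spread widely within a label, at 10.2, 11.3, 3.54 and 4.97 CPM in Erbb3f/f replicates 1 to 4 and 11.6, 12.8, 7.49 and 12.6 CPM in Erbb3d/d replicates 1 to 4. Erbb3f/f replicates 1 and 2 lay above Erbb3d/d replicate 3 and just below Erbb3d/d replicates 1, 2 and 4. Erbb3f/f replicates 3 and 4 were the lowest. The log2 fold change was 0.57 with a wide error (SE 0.36; 95% interval -0.23 to 1.37; adjusted p = 0.561 in edgeR's test). It was -0.13 (SE 0.42) with the smooth muscle marker mean as a covariate, a fit in which label and smooth muscle level cannot be told apart. Leaving out 1 library gave 0.33 (without Erbb3f/f replicate 3) to 0.84 (without Erbb3f/f replicate 2).

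**Figure D1:**
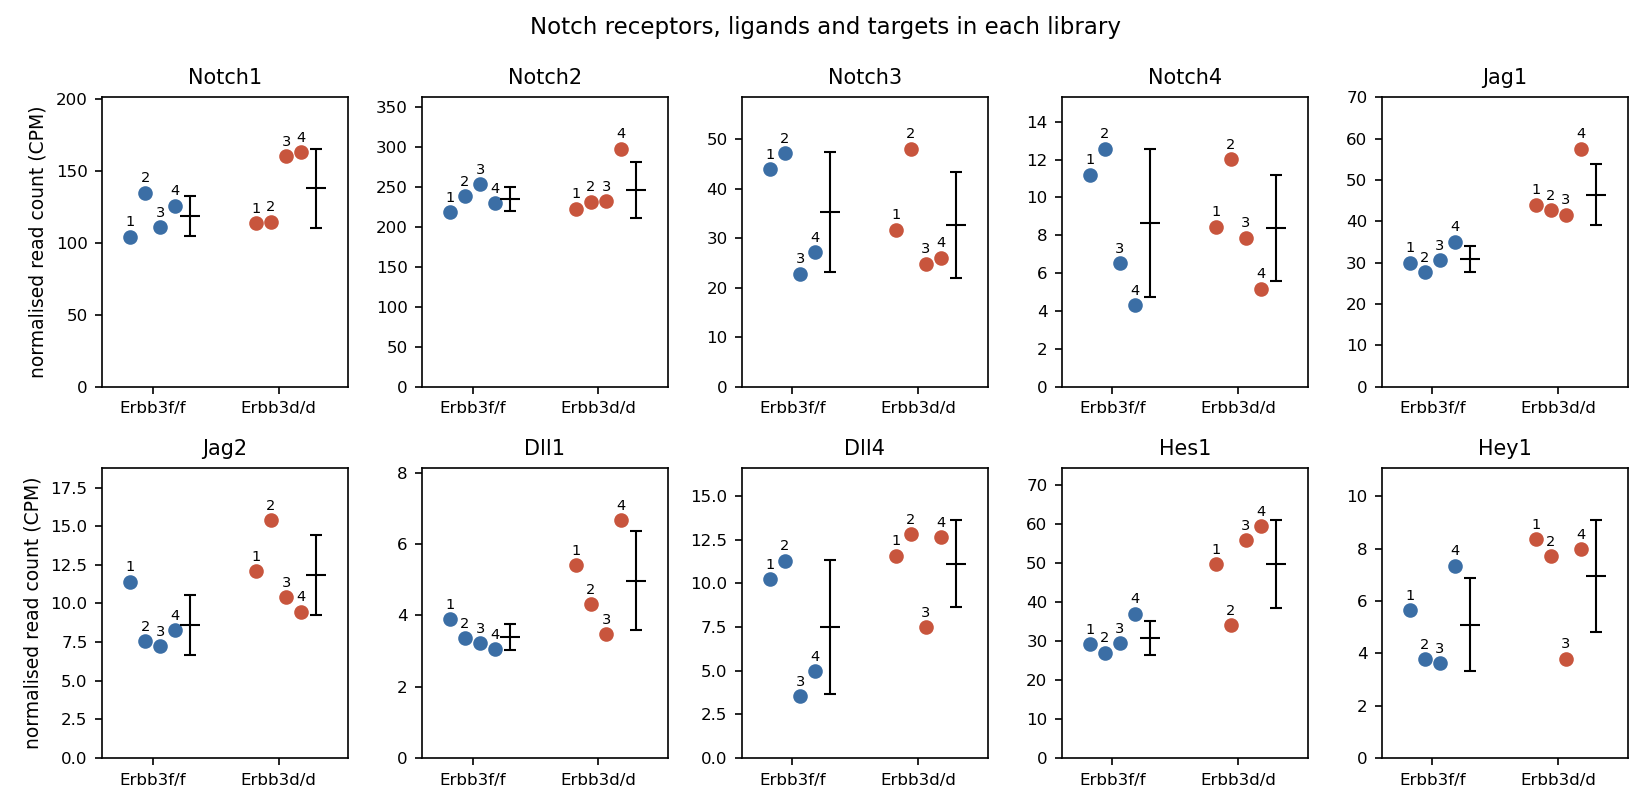
Normalised read count (CPM) of each of the 10 genes on the y axis, with 1 numbered point per library and replicate numbers as in the labels, blue for Erbb3f/f and red for Erbb3d/d; the bar beside each group is the mean and SD (n = 4). Only in the Jag1 panel do all red points, at 41.6 to 57.6 CPM, lie above all blue points, at 27.6 to 35.1 CPM.

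The targets also had the higher mean in Erbb3d/d. Hes1 encodes a basic helix-loop-helix repressor and is the target most often read as a sign of Notch activity, although other pathways act on it too. The gene spans 30064384 to 30067796 on chromosome 16. Its levels were 29.2, 27.0, 29.4 and 37.0 CPM in Erbb3f/f replicates 1 to 4, from 300, 258, 374 and 327 reads. The libraries labelled Erbb3d/d, in the same order, had 49.6, 34.1, 55.9 and 59.5 CPM, from 505, 292, 709 and 678 reads. Erbb3d/d replicates 1, 3 and 4 lay above every Erbb3f/f library, and Erbb3d/d replicate 2 was inside the Erbb3f/f range. Means of 30.6 ± 4.35 and 49.8 ± 11.2 CPM (SD, n = 4 each) gave a log2 fold change of 0.70 (SE 0.17; 95% interval 0.32 to 1.09), or 1.63-fold, the largest among the 10 genes in this fit. Its adjusted p was 0.243 in edgeR's test (unadjusted 0.00205), and the exact permutation test gave p = 0.0571.

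The call for Hes1 depended on the libraries and the method. Without Erbb3d/d replicate 2 the log2 fold change of Hes1 was 0.85 with an adjusted p of 0.0192 in edgeR, a fit that called 143 genes higher (0.968%). DESeq2 gave an adjusted p of 0.0241 for Hes1, and edgeR with the endothelial marker mean as a covariate gave 0.0469, where 0.589% of genes were called higher. Over all 20 alternatives the adjusted p of Hes1 ran from 0.0192 to 0.9997, with the upper end from the epithelial covariate, as for Jag1. With the epithelial marker mean as a covariate its log2 fold change was 0.24 (SE 0.22).

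Hey1 encodes a second repressor of this class (chromosome 3, 8663359 to 8667256). It had 5.65, 3.77, 3.61 and 7.35 CPM in Erbb3f/f replicates 1 to 4 and 8.35, 7.70, 3.78 and 7.98 CPM in Erbb3d/d replicates 1 to 4. Erbb3d/d replicate 3 lay with the lowest Erbb3f/f libraries, while the other 3 libraries labelled Erbb3d/d were above all of Erbb3f/f. Hey1 had a log2 fold change of 0.45 (SE 0.33, adjusted p = 0.621 in edgeR's test), and 0.031 (SE 0.50) with the smooth muscle marker mean as a covariate. As for Dll1, label and smooth muscle level cannot be told apart in that fit.

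Log2 fold changes of the receptors were -0.11 to 0.22, and none passed the test over all genes. Notch1, on chromosome 2 at 26457903 to 26516663, had 104, 135, 111 and 126 CPM in Erbb3f/f replicates 1 to 4 and 114, 115, 161 and 163 CPM in Erbb3d/d replicates 1 to 4. Erbb3d/d replicates 3 and 4 stood above all other libraries, and replicates 1 and 2 lay inside the Erbb3f/f range. Its log2 fold change was 0.22 (SE 0.14, adjusted p = 0.583 in edgeR's test), and -0.18 (SE 0.19) with the epithelial marker mean as a covariate. As for Jag1, label and epithelial level cannot be told apart in that fit.

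Notch2, on chromosome 3 at 98013527 to 98150361, was the steadiest member. It had 218, 238, 253 and 229 CPM in Erbb3f/f replicates 1 to 4 and 222, 231, 232 and 297 CPM in Erbb3d/d replicates 1 to 4. Erbb3d/d replicate 4 was the highest, and Erbb3d/d replicates 1 to 3 lay inside the Erbb3f/f range. The log2 fold change of 0.07 (SE 0.11) had a 95% interval of -0.17 to 0.30, which leaves out a 1.5-fold difference in either direction, and the adjusted p was 0.846 in edgeR's test.

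Notch3 (chromosome 17, 32120820 to 32166852) had 43.9, 47.1, 22.8 and 27.1 CPM in Erbb3f/f replicates 1 to 4 and 31.7, 48.1, 24.8 and 26.1 CPM in Erbb3d/d replicates 1 to 4. Notch4, on chromosome 17 at 34564268 to 34588503, had 11.2, 12.6, 6.52 and 4.30 CPM in Erbb3f/f and 8.45, 12.0, 7.88 and 5.18 CPM in Erbb3d/d. For both genes the libraries numbered 1 and 2 were above those numbered 3 and 4 in each label, and the labels overlapped throughout. The log2 fold change was -0.11 (SE 0.28) for Notch3 and -0.05 (SE 0.36) for Notch4, with adjusted p of 0.905 and 0.969 in edgeR's test. The 95% interval of Notch4, -0.84 to 0.74, spans changes from 0.558-fold to 1.67-fold.

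**Figure D2:**
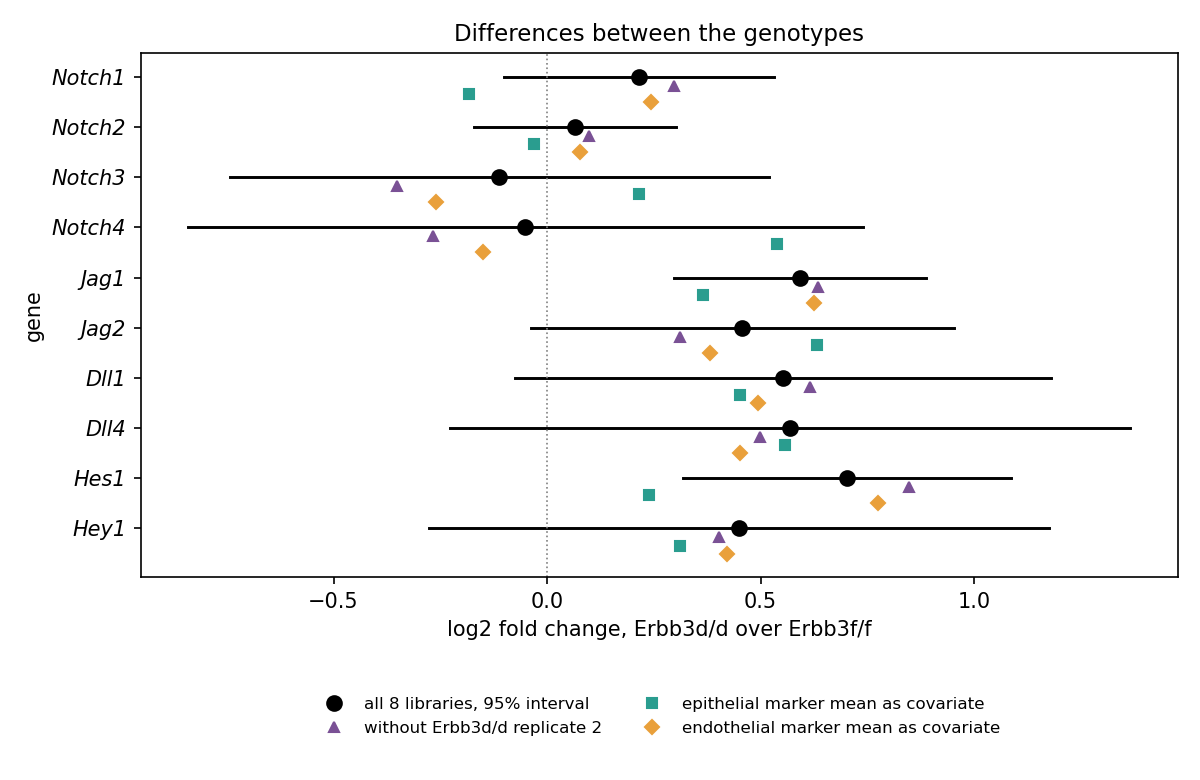
Log2 fold change of Erbb3d/d over Erbb3f/f on the x axis for each gene on the y axis; black points and lines are the estimate from all 8 libraries with its 95% interval, and coloured symbols are the estimates under 3 alternatives. The intervals of Jag1 (0.30 to 0.89) and Hes1 (0.32 to 1.09) lie above 0, and those of the other 8 genes include 0.

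Across the 10 genes, 8 had a log2 fold change above 0, as had 48.0% of all tested genes. Their median was 0.45, beside -0.01 for all 14598. By role, the median was 0.01 for the receptors, 0.56 for the ligands and 0.58 for the targets. An unadjusted p under 0.05 with a higher mean in Erbb3d/d was reached by Jag1 and Hes1, 2 of 10, beside 6.64% of all genes. None of the 10 reached it with a lower mean, beside 4.97% of all genes. Since the members were chosen with earlier results of these data known, these counts and medians are a description only.

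Levels can be compared between genes only per length, and for this CPM was divided by the length of merged exons in kilobases. On this scale the order of the means in Erbb3f/f was Notch2 (21.8 CPM per kb), Hes1 (15.0), Notch1 (8.36), Jag1 (5.29), Notch3 (4.36), Dll4 (1.95), Hey1 (1.56), Jag2 (1.24), Notch4 (1.07) and Dll1 (0.801). From Notch2 down to Jag1, each gene's 4 libraries lay wholly above those of the next, and from Jag1 downward each neighbouring pair overlapped. Notch2 stood at the 82.5th percentile of 13702 genes with a mean of at least 1 CPM and a matched length, Hes1 at the 73.2th and Dll1 at the 8.49th. In Erbb3d/d the order began with Hes1 (24.4 CPM per kb) and Notch2 (22.8), whose ranges overlapped, and Notch4 (1.04) was last.

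Within each role the shares of the main genes overlapped between the labels. Notch2 made up 61.4% ± 4.64 of the summed receptor level per kb in Erbb3f/f, beside 60.5% ± 2.93 in Erbb3d/d (SD, n = 4 each), and Notch1 made up 23.5% ± 2.08 and 25.7% ± 3.83. Among the ligands Jag1 held 57.6% ± 9.20 and 58.1% ± 4.69, and Dll4 held 20.5% ± 9.19 and 20.9% ± 2.95. The summed ligand level was 7.98 to 10.4 CPM per kb in Erbb3f/f and 11.4 to 16.1 in Erbb3d/d, while the summed receptor level was 34.0 to 39.0 and 33.6 to 42.9.

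**Figure D3:**
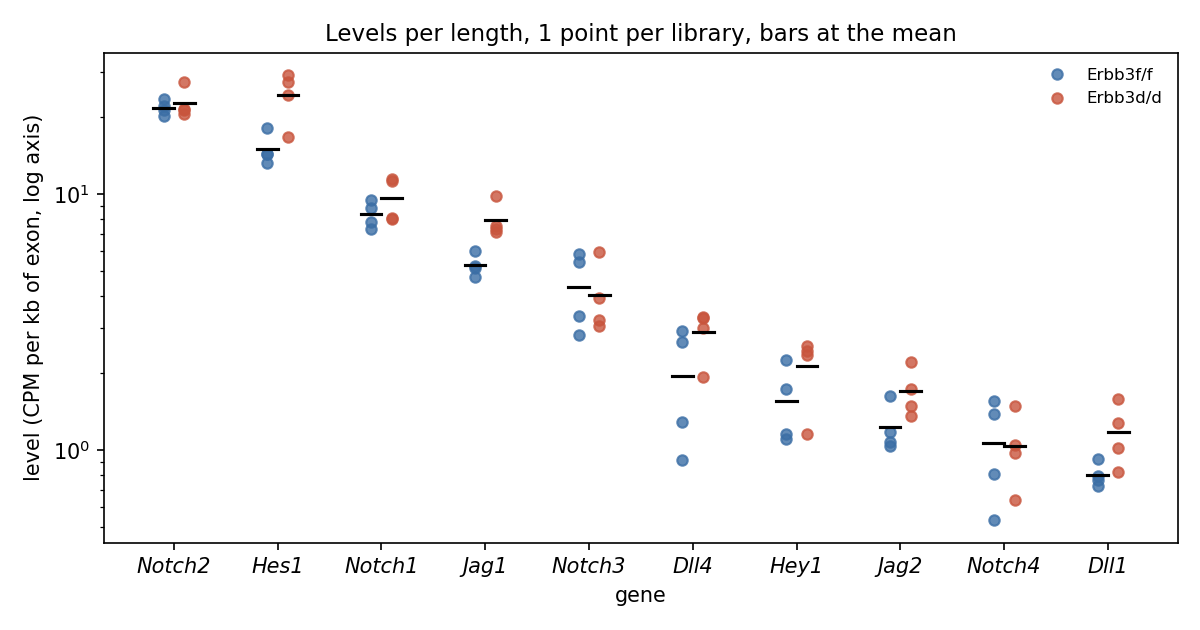
Level per length (CPM per kb of merged exon, log axis) on the y axis for the 10 genes on the x axis, ordered by their mean in Erbb3f/f; each point is 1 library, blue for Erbb3f/f and red for Erbb3d/d, and bars are means. Notch2 and Hes1 lie highest, at means of 21.8 and 15.0 in Erbb3f/f, and Dll1 and Notch4 near 1.

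Several members moved with markers of other cell types from library to library. Over the 8 libraries, 40 relations were computed on the log2 CPM scale, 10 genes against the marker means of 4 cell types, after the data had been seen. Notch3 followed the endothelial mean with Pearson's r = 0.83 (permutation p = 0.0223, adjusted 0.114) and Spearman's rho = 0.86 (p = 0.0107, adjusted 0.0857). Notch4 followed it with r = 0.80 (permutation p = 0.0252, adjusted 0.114) and rho = 0.90 (p = 0.00456, adjusted 0.0608), and Dll4 with r = 0.86 (permutation p = 0.00885, adjusted 0.0817) and rho = 0.76 (p = 0.0368, adjusted 0.123). Leaving out Erbb3f/f replicates 3 and 4, the libraries farthest from the median endothelial mean, gave r = 0.85, 0.60 and 0.78. With the mural mean, Dll4 had r = 0.86 (permutation p = 0.00523, adjusted 0.0817) and rho = 0.71 (p = 0.0576, adjusted 0.165), and r = 0.56 without the same pair of libraries. Notch3 and Notch4 had r = 0.81 and 0.78 with that mean (adjusted permutation p = 0.114 each). Erbb3f/f replicates 3 and 4 and Erbb3d/d replicate 3 had a lower endothelial mean than the other 5 libraries, and neither set is large enough for an r of its own. The smooth muscle markers, all 8 of which had the higher mean in Erbb3d/d (median log2 fold change 1.09), went with Dll1 at r = 0.83 (permutation p = 0.0102, adjusted 0.0817) and rho = 0.93 (p = 0.00223, adjusted 0.0608), the highest rho of the 40. Dll4 had r = 0.80 (permutation p = 0.0156, adjusted 0.104) and rho = 0.81 (p = 0.0218, adjusted 0.0968) with them. Leaving out Erbb3d/d replicate 1 and Erbb3f/f replicate 3 gave r = 0.91 and 0.77. With the smooth muscle mean, Hey1, Jag1 and Jag2 had rho = 0.83, 0.79 and 0.76 (adjusted permutation p = 0.0968, 0.112 and 0.123). Their r was 0.60, 0.65 and 0.62 (adjusted permutation p = 0.316, 0.267 and 0.308), and 0.21, 0.69 and 0.40 without the same pair of libraries. Hes1 followed the epithelial mean with r = 0.90 (permutation p = 0.000843, adjusted 0.0337) and rho = 0.90 (p = 0.00456, adjusted 0.0608), and r = 0.90 without Erbb3f/f replicate 3 and Erbb3d/d replicate 4. The adjusted p of r for Hes1 was the only one of the 40 under 0.05. A label with 4 libraries is too small for a value of its own, and the epithelial mean itself was higher in Erbb3d/d, 5.84 ± 0.264 against 6.48 ± 0.324 (SD, n = 4 each), so label and epithelial level cannot be told apart here. Jag1 moved with the epithelial mean at r = 0.85 (permutation p = 0.00781, adjusted 0.0817) and rho = 0.86 (p = 0.0107, adjusted 0.0857), and r = 0.75 without Erbb3f/f replicate 3 and Erbb3d/d replicate 4, and its values separate by label. Notch1 had r = 0.75 (permutation p = 0.0327, adjusted 0.119) and rho = 0.62 (p = 0.115, adjusted 0.287) with the epithelial mean.

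**Figure D4:**
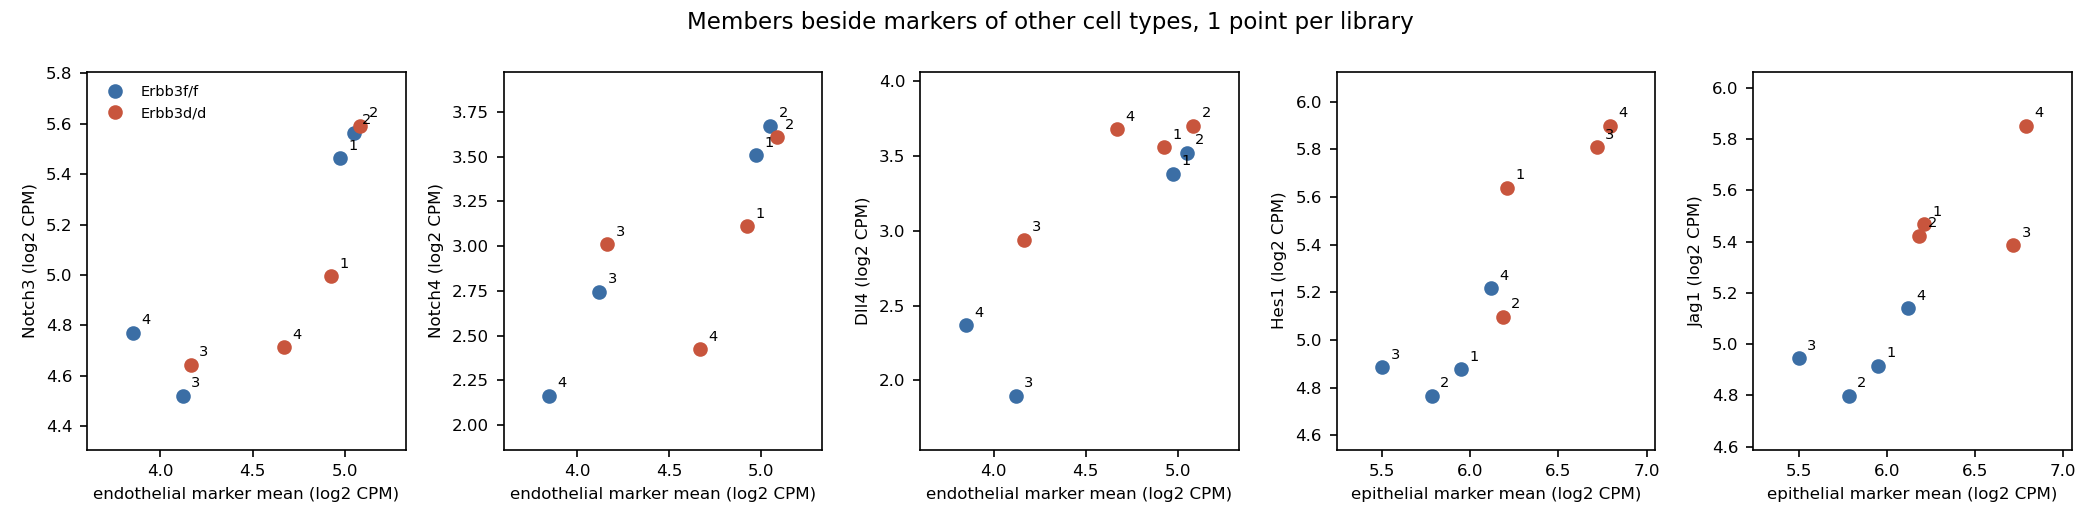
Log2 CPM of Notch3, Notch4 and Dll4 on the y axes against the mean log2 CPM of 12 endothelial markers on the x axes, and of Hes1 and Jag1 against the mean of 12 epithelial markers; each point is 1 library, numbered by replicate, blue for Erbb3f/f and red for Erbb3d/d. Notch3, Notch4 and Dll4 are high in the replicates numbered 2, which have the highest endothelial means, and Notch3 and Notch4 are low in Erbb3d/d replicate 4 at a middle one, Hes1 is highest in Erbb3d/d replicates 3 and 4, and for Jag1 the colours stay apart.

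The rest of the pathway was read from a list of 47 further genes, of which 39 passed the filter on low counts. In edgeR's test 0 were called higher and 0 lower, with 1 gene in each direction at an unadjusted p under 0.05. A log2 fold change above 0 was seen for 19 and one below 0 for 20, with a median of -0.02. The 5 enzymes that add sugars to the receptor's extracellular part included 1 of the 2 genes at an unadjusted p under 0.05. This was Pofut1, the O-fucosyltransferase that Notch needs for ligand binding, at 188 ± 28.6 CPM in Erbb3d/d against 234 ± 20.6 CPM in Erbb3f/f (SD, n = 4 each) and a log2 fold change of -0.31 (SE 0.12; adjusted p = 0.351 in edgeR's test). Lfng, which extends that fucose, had 37.8 ± 7.76 and 34.8 ± 4.44 CPM (log2 fold change -0.12, SE 0.16).

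Of the 4 genes for ubiquitin ligases that drive ligand endocytosis, Neurl1b had 13.0, 18.3, 13.1 and 16.8 CPM in Erbb3f/f replicates 1 to 4 and 29.9, 18.2, 25.1 and 31.0 CPM in Erbb3d/d replicates 1 to 4. As for Hes1, Erbb3d/d replicate 2 was inside the Erbb3f/f range and the other 3 were above it. Neurl1b had a log2 fold change of 0.77 (SE 0.19; adjusted p = 0.252 in edgeR's test). DESeq2 called it (adjusted p = 0.0268), as did edgeR without Erbb3d/d replicate 2 (0.0345), within a range of 0.0268 to 0.9997 over 20 alternatives. The upper end again came from the epithelial covariate, which gave Jag1 and Hes1 the same adjusted p.

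Of the 10 protease genes that cut the receptor, 6 had a log2 fold change above 0. Ncstn, which encodes the gamma-secretase subunit nicastrin, had 104 ± 1.61 and 114 ± 3.65 CPM (SD, n = 4 each) with no overlap between the labels (log2 fold change 0.13, SE 0.07; adjusted p = 0.528 in edgeR's test). Aph1c, a second subunit gene whose counts are uncertain because of its close copy Aph1b, had 13.2 ± 3.06 and 18.6 ± 5.15 CPM. Among genes for turnover, Dtx2, a Deltex ubiquitin ligase gene, had 20.5 ± 0.510 and 23.0 ± 1.03 CPM, again with no overlap (log2 fold change 0.17, SE 0.11; adjusted p = 0.594 in edgeR's test). These were the 2 of 39 pathway genes that were higher without overlap, beside 2.56% of all genes, and 0 were lower in this way, beside 2.48%.

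Rbpj, the DNA-binding partner of all receptors, had 189, 209, 229 and 215 CPM in Erbb3f/f replicates 1 to 4 and 185, 165, 184 and 203 CPM in Erbb3d/d replicates 1 to 4. Its log2 fold change was -0.19 (SE 0.09; adjusted p = 0.464 in edgeR's test). Targets other than Hes1 and Hey1 had no common direction. Heyl, a Hey-related repressor gene, had 47.3 ± 6.69 and 35.8 ± 10.5 CPM (log2 fold change -0.41, SE 0.20). Hey2 had 36, 66, 20 and 11 reads in Erbb3f/f and 11, 20, 17 and 9 in Erbb3d/d replicates 1 to 4, a log2 fold change of -1.26 (SE 0.58) that was -0.61 without Erbb3f/f replicate 2 and -0.63 with the epithelial covariate. Nrarp, which encodes a feedback inhibitor, had 9.88 ± 4.35 and 10.1 ± 3.21 CPM (log2 fold change 0.03, SE 0.35). The adjusted p of these 3 targets was 0.456, 0.435 and 0.983 in edgeR's test.

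The genes whose pattern over the 8 libraries was most like that of each member were named by the highest Pearson r among about 12460 genes with a mean of at least 5 CPM. They are a description, since all points share library and depth and the 8 libraries also share the labels. For the receptors they were Haus3, Uhrf1 and Hoxb7 for Notch1 (r = 0.99 each), Gcc1, Megf9 and Ppm1h for Notch2 (0.93 to 0.97), Seh1l, Ints2 and Rgs5 for Notch3 (0.96 to 0.99), and Trp53rk, Cops2 and Prnd for Notch4 (0.95 to 0.96). Rgs5, next to Notch3, is on the list of mural markers used here. For the ligands they were Entpd8, Mustn1 and Anxa3 for Jag1 (0.96 to 0.97), Ndufs3, Mbd1 and Galt for Jag2 (0.89 to 0.95), Pdzd7, Thbd and Nudt12 for Dll1 (0.97 to 0.98), and Tspan18, Bambi and C130074G19Rik for Dll4 (0.96 to 0.97). For the targets they were Camk2n1, Mroh2a and Cryab for Hes1 (0.98 to 0.99) and Scamp1, Olfm1 and Snrnp48 for Hey1 (0.90 to 0.92).

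Because the libraries are non-directional, reads from an overlapping gene on the other strand cannot be told from a member's own. In GENCODE vM21 such exonic overlap covers 1068 and 414 bases of the 14232 bases of Notch1 exons, 488 of 8089 for Notch3, 867 of 4219 for Dll1 and 214 of 3852 for Dll4. Notch2 shares 541 of 10782 bases with a gene model on its own strand. Of these overlapping gene models only Gm14207, which overlaps Dll4, has counts of its own in these data. For Notch4, Jag1, Jag2, Hes1 and Hey1 no exonic overlap is annotated.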

How the data were processed

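Polyadenylated RNA from 8 libraries of uterine stromal cells was sequenced as non-directional pairs, per the labels' protocols. The authors deposited 1 table of raw counts per library, with no normalization. HISAT2, SAMtools, HTSeq and StringTie and the builds mm10 and GRCm38 are named, per the submitters' processing notes, without role or version. The annotation and strand setting are not given in the sources used here. The lines that name no gene held 70.9% to 73.0% of entries and were left out.

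The tests ran in edgeR 4.0.16 under R 4.3.3 (filterByExpr, TMM scaling, robust quasi-likelihood test, Benjamini-Hochberg over 14598 genes, threshold 0.05). Alternatives used limma 3.58.1 (voom) and DESeq2 1.42.0 and are given in the closing section. The two-sided exact permutation test used log2(CPM + 0.5) over 70 assignments. Marker means are log2 CPM with a prior count of 2. Exon lengths came from GENCODE vM21 (GRCm38), where 21737 of 23420 symbols had 1 match. Promoters came from RefSeq (GRCm38.p6), read with Python 3.11.15.

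Libraries were grouped by the genotype in their titles. The members and lists were chosen with earlier results of these data known. All 10 members are named. Other pathway genes are named where the labels do not overlap or the adjusted p is under 0.05, where they are among the 3 smallest p in a direction, and for Rbpj, Lfng, Heyl, Hey2 and Nrarp. Replicates of a label differed by more than sampling noise. The E-box search, the mural covariate and the relations to marker means were chosen after seeing the data.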

Additional observations from a re-analysis of the deposited data

Results flagged for a closer look

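Of 40 groups of 4 libraries examined (the 10 members and 10 further pathway genes in each label), 3 held a library far from the rest, and chance would give about 2 at 1 in 20. Notch2 in Erbb3d/d replicate 4 was 297 CPM, where the nearest library of that label had 232 CPM. Jag1 in the same library was 57.6 CPM, where the nearest had 44.0 CPM. Without this library the log2 fold change was -0.03 for Notch2 and 0.48 for Jag1. Hey1 in Erbb3d/d replicate 3 was 3.78 CPM, the lowest of its label, where the nearest had 7.70 CPM.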

How the results depend on the processing

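Over 20 alternatives, 187 of 200 member estimates kept their direction, and 5 members (Jag1, Jag2, Dll1, Hes1 and Hey1) kept it in each one, although Hey1 came down to 0.031 and Dll1 to 0.17 with the smooth muscle covariate; where a value changed, the cause was not tested. Genes past the threshold over all genes numbered 262 with DESeq2, 52 with the replicate block, 126 with the endothelial and 58 with the mural marker mean as a covariate, 0 to 259 leaving out one library (259 without Erbb3d/d replicate 2), and 0 with limma voom, the other filters and scalings and the smooth muscle or epithelial covariate. Members past it numbered 2 with DESeq2 (Jag1, log2 fold change 0.60, and Hes1, 0.71), 1 with the endothelial covariate (Hes1, 0.77) and 0 to 1 leaving out one library (Hes1, 0.61 to 0.85); other pathway genes numbered 1 with DESeq2 and 0 to 1 leaving out one library (Neurl1b). With the epithelial covariate the log2 fold change was -0.18 (SE 0.19) for Notch1, -0.031 (SE 0.18) for Notch2 and 0.22 (SE 0.44) for Notch3. In the same fit it was 0.54 (SE 0.55) for Notch4, -0.033 (SE 0.56) for Nrarp and -0.080 (SE 0.40) for Erbb3. With the smooth muscle covariate the log2 fold change was -0.13 (SE 0.42) for Dll4, 0.12 (SE 0.22) for Lfng and -0.025 (SE 0.51) for Nrarp. Nrarp had -0.032 with the endothelial and -0.037 with the mural covariate. The epithelial and the smooth muscle mean each separated by label, so label and marker level cannot be told apart in those fits. Leaving out one library gave ranges of -0.035 to 0.11 for Notch2, -0.35 to 0.067 for Notch3, -0.27 to 0.19 for Notch4, -0.20 to 0.035 for Lfng and -0.22 to 0.32 for Nrarp. The exact permutation p then ranged from 0.457 to 0.943 for Notch2, 0.371 to 1 for Notch3, 0.486 to 1 for Notch4, 0.0286 to 0.114 for Dll1 and 0.0286 to 0.0857 for Hes1. Here 0.0286 is the smallest p that 3 against 4 libraries allow. The replicate block gave Notch4 a log2 fold change of 0.0078 and called none of the members. The titles number the replicates without saying that the numbers pair the libraries, and the main fit did not pair them. Same-numbered libraries of the 2 labels correlated with r of 0.0959 to 0.221 in their deviations, 3 of them above 0.1. By the same measure 5 of 8 libraries were closest to their own number. Whether the numbers mark pairs cannot be settled from these values. With the replicate block the adjusted p in edgeR was 0.0774 for Jag1 and for Hes1. The SE of Notch3 was then 0.13, against 0.28 in the main fit. Depth was low for Dll1 and Hey2, with 27 to 76 and 9 to 66 reads per library, and 8 pathway genes had too few reads to be tested.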

Other observations

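Some further pathway genes had too few reads for the test, among them all 4 of the other ligands on the list. Dll3, a ligand-like gene, was counted 1, 0, 1 and 4 times in the libraries labelled Erbb3f/f (replicates 1 to 4) and 0 times in each labelled Erbb3d/d. Dlk1, which encodes a non-canonical ligand, had 6, 1, 11 and 1 reads and 0, 3, 8 and 4 reads. Hes5, a classical Notch target of the nervous system, had 0 reads in all 8 libraries, which allows a level of up to 0.236 to 0.350 CPM depending on the library (3 counts per library, counting error only). Hes7, the oscillating target of the segmentation clock, had 7, 2, 5 and 0 and then 7, 8, 0 and 4 reads.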
